A study of Mus musculus with 19 samples.

Results

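The genes described here are 9 members of the bone morphogenetic protein (BMP) pathway and of the Id family, of 54119 genes in the table: the ligands Bmp4 and Bmp7, the receptor Bmpr1a, the signal carrier Smad1, the inhibitor Smad6, and Id1, Id2, Id3 and Id4. They were chosen by name, and all 9 were among the 14972 genes tested. RNA was measured in 19 libraries of mouse embryonic stem cells (mESC) and epiblast-like cells (EpiLC) to ask whether TET3, an enzyme that oxidises 5-methylcytosine, is needed for the step between them. The mESC groups were 3 wildtype XX libraries, 3 wildtype XY libraries and 4 Tet3-/- libraries made in the XX line, titled mutant #1 to #4. The EpiLC groups were 3 XX, 3 XY and 3 Tet3-/- libraries, the last titled mutant #1, #3 and #4. The XX and Tet3-/- cells are of the line LF2 and the XY cells of the line E14, so that sex and cell line cannot be told apart. Every mESC culture was kept in N2B27 with LIF and with inhibitors of GSK3 and of MEK1/2, and every EpiLC culture was fed FGF5 and Activin A for 5 days and no LIF. No BMP was named among the additions in the labels. Animal age is not given, nor whether the mutant numbers mark separate clones. Nothing says that the libraries of a group came from separate cultures, so p-values measure the spread between these libraries, which may be technical. In the Tet3-/- groups that spread may also hold differences between mutants.

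BMP ligands are secreted dimers that bind a pair of receptor kinases at the cell surface, a type I receptor such as BMPR1A and a type II receptor. The type I receptor phosphorylates SMAD1 and its close relatives, which enter the nucleus with SMAD4 and switch on target genes, the Id genes being the best known of them. ID proteins hold a helix-loop-helix but no DNA-binding part, so they pair with the E proteins that would otherwise bind E-box DNA and keep them off it. In mouse embryonic stem cells BMP4, acting through Id genes, is known to sustain self-renewal together with LIF in serum-free medium, and in the embryo BMP from the extraembryonic ectoderm patterns the epiblast and starts the germ line.

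Promoters are printed for Id2, Id3, Id4 and Bmp4, the members with the largest log2 fold changes, and for Smad6, which held the rarest motif searched, so that the DNA at their start can be seen beside their levels. Each is 250 bases before and 50 bases after the start that RefSeq gives the gene on GRCm38.p6, written 5′ to 3′ on the gene's own strand. The gene positions printed below are those of GENCODE M21, whose starts can differ. The RefSeq start was the same for Bmp4 and Smad6, lay 1048 bases downstream of the outermost GENCODE start for Id2 and 325 bases downstream for Id3, and lay 112 bases upstream for Id4. The Id3 window thus lies within the GENCODE gene and the Id4 window ends before it. Of the 9 members, 7 were matched by symbol, and Bmp7 and Id1 were not. Capitals mark 3 motifs, each the same on both strands: GGCGCC, the core of the GC-rich element to which SMAD1 and SMAD5 bind, GTCTAGAC, the palindromic SMAD binding element, and CANNTG, the E-box. No pair of motifs overlapped in these windows. The Id2 window is chr12:25096043-25096342 on the minus strand, that of Id3 chr4:136143572-136143871 on the plus strand and that of Id4 chr13:48260866-48261165 on the plus strand. The Bmp4 window is chr14:46390620-46390919 and the Smad6 window chr9:64022010-64022309, both on the minus strand.
Id2: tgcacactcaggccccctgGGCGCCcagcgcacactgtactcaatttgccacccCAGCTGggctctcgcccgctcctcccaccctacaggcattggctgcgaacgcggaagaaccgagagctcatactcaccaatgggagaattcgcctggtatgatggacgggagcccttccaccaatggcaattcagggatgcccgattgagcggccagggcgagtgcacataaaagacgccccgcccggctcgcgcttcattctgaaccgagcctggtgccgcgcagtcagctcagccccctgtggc
Id3: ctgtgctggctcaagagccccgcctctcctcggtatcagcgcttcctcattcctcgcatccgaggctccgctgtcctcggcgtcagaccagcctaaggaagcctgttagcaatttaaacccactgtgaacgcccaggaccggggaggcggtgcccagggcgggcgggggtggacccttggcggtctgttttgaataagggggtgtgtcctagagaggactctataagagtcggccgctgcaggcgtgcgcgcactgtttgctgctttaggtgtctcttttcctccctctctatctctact
Id4: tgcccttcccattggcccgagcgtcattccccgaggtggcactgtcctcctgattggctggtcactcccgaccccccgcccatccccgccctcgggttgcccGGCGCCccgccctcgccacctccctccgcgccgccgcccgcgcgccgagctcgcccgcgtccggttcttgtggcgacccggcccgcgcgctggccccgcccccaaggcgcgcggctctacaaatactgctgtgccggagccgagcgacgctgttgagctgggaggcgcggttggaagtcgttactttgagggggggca
Bmp4: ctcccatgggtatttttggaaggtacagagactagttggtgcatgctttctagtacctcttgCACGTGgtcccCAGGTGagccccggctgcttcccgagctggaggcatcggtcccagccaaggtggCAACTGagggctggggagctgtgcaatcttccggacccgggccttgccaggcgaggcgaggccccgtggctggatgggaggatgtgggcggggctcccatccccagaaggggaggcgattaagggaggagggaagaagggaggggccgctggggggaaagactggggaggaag
Smad6: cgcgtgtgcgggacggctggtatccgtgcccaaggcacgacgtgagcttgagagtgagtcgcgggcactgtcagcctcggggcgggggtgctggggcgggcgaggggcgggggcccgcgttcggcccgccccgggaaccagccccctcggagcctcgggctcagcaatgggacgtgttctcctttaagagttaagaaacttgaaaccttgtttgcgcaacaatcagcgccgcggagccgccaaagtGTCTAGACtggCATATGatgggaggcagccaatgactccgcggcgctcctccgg

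The 3 Id windows differed in these letters. Id2 held one GGCGCC, which began 231 bases upstream of the RefSeq start, and one E-box (CAGCTG) at 196 bases upstream. Id4 held one GGCGCC at 148 bases upstream and no E-box, and Id3 held none of the 3 motifs. Smad6 held GTCTAGAC, whose first base lay 4 bases upstream of the start, and an E-box (CATATG) from 8 bases downstream. Bmp4 held 3 E-boxes, CACGTG at 188, CAGGTG at 177 and CAACTG at 123 bases upstream. Among 32851 promoters of 300 bases, 11.9% held GGCGCC, 0.213% held GTCTAGAC and 72.3% held an E-box. Of the 2 matched members not printed, Bmpr1a held GGCGCC at 198 bases upstream and Smad1 held none of the 3. The printed windows were 63.3% (Id2), 60% (Id3), 73.3% (Id4), 64% (Bmp4) and 66.3% (Smad6) G or C, against a median of 52.7% over all promoters. A match is a description of the letters, and no factor's binding was measured.

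Values are given as scaled TPM, that is, the transcript abundance per gene (TPM, adjusted for transcript length and summing to 1000000 per library) divided by a factor per library that equalises the median gene. The factor was chosen because the non-coding RNA Rn7s1 alone held from 23.54% to 43.73% of TPM. Without the factor the median of all tested genes moved by 0.54 on the log2 scale in the XY transition. In XX against XY EpiLC it moved by -0.59. Scaling takes the median gene as unchanged, and whether it changed was not tested. Fold changes are on the scale log2(scaled TPM + 1), which understates the change of low genes, and a change is called where limma's p, adjusted over all 14972 genes, is under 0.05. Sequencing depth cannot be read from TPM, and in bulk RNA fewer cells of a type and less RNA per cell cannot be told apart. Naive markers summed to 356 to 491 scaled TPM in mESC and to 6.29 to 49.6 in EpiLC, and formative markers summed to 21.5 to 35.1 in mESC and to 50.4 to 259 in EpiLC. The targeted gene Tet3 was at 0.522 to 0.847 scaled TPM in Tet3-/- mESC and 0.656 to 1.24 in XX mESC, and at 1.06 to 1.32 in Tet3-/- EpiLC and 1.41 to 1.92 in XX EpiLC. Neither difference was called (limma adjusted p 0.44 and 0.115), although in EpiLC every mutant library was lower than every XX library, while the mESC ranges overlapped. Which part of Tet3 is altered is not given in the sources used here.

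A few libraries stood apart from their group. XY mESC 2 had Cdx2, a trophoblast and posterior gene, at 8.05 scaled TPM against 2.84 and 3, and the primitive streak gene T at 10.4 against 5.03 and 5.69. Tet3-/- EpiLC #3 had T at 70.8 against 1.29 and 1.37, and a summed mesoderm and primitive streak list of 81.7 against 2.21 and 2.36. XX mESC 2 was the library furthest from its group over all tested genes, and its summed primitive endoderm list was 1.49 against 9.22 and 10.4. Neural markers summed to 0.169 to 0.903 and fibroblast markers to 0.711 to 7.09 in all 19 libraries. Results on the 9 members that turn on one of these libraries are given below with and without it. For the other genes of the pathway no values without a library are given.

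Bmp4, which in the embryo is the main BMP of the extraembryonic ectoderm, ran in opposite directions in the XX and XY lines. In XX mESC it was at 1.89, 0.147 and 0.751 scaled TPM, and in XX EpiLC at 9.45, 9.27 and 8.27. In XY mESC it was at 12.4, 12 and 10.3, and in XY EpiLC at 1.96, 1.91 and 3.41. The XX groups did not overlap, nor did the XY groups, and the low state in one line was the high state in the other. Bmp4 therefore rose by a log2 fold change of 2.47 (SE 0.32, limma adjusted p 8.26e-06) in the XX transition and fell in the XY transition, with a log2 fold change of -1.9 (SE 0.32, limma adjusted p 0.000114). The difference of the transitions, XX minus XY, was 4.37 (SE 0.45, limma adjusted p 5.08e-06).

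Tet3-/- cells followed the XX direction. Bmp4 was at 2.02, 2.17, 1.08 and 0.953 scaled TPM in Tet3-/- mESC and at 9.04, 3.58 and 3.84 in Tet3-/- EpiLC #1, #3 and #4, where #1 matched the XX EpiLC level and the other two lay at less than any XX EpiLC library. It rose by 1.28 (SE 0.3, limma adjusted p 0.00182). Against XX the difference was 0.47 (SE 0.3) in mESC and -0.72 (SE 0.32) in EpiLC, and neither was called (limma adjusted p 0.519 and 0.23). Without Tet3-/- EpiLC #1 the EpiLC difference was -1.08 and was called (limma adjusted p 0.0472). The difference of the transitions, Tet3-/- minus XX, was -1.19 (SE 0.44, limma adjusted p 0.292).

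The Bmp4 gene (ENSMUSG00000021835.15, chromosome 14, 46383520 to 46390669, minus strand) has 4 annotated transcripts, and the coding ones held a median of 71.3% of its level, from 33.6% to 100%. The coding transcript Bmp4-201 alone was at 0.602 ± 0.413 scaled TPM in XX mESC and 6.13 ± 0.27 in XX EpiLC (SD, n = 3). It was at 8.31 ± 1.7 in XY mESC and 1.79 ± 0.169 in XY EpiLC (SD, n = 3), the same order as for the whole gene. A retained-intron transcript made up most of the rest, with 2.62 ± 1.83 in XY mESC and 2.54 ± 0.574 in XX EpiLC. Bmp4 overlaps 2 genes on the opposite strand, Bmpr1a 1 and Id4 2. The libraries were stranded, but whether the quantification used the strand is not given in the sources used here.

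Bmp7, a ligand that can pair with BMP4 and signals through the same SMADs, moved less. It was at 3.06, 1.52 and 3.31 scaled TPM in XX mESC and 3.64, 3.71 and 3.33 in XX EpiLC, a log2 fold change of 0.37 (SE 0.23, limma adjusted p 0.203). Tet3-/- mESC had 2.49, 1.7, 1.36 and 2.16, and Tet3-/- EpiLC 5.64, 4.19 and 4.87. These groups did not overlap, and Bmp7 rose by 1.02 (SE 0.22, limma adjusted p 0.000801), but the difference from the XX transition, 0.65 (SE 0.32), was not called (limma adjusted p 0.473). In XY mESC it was at 3.5, 7.52 and 3.58, the high value being library 2, and in XY EpiLC at 6.88, 6.51 and 6.5. The XY change of 0.45 (SE 0.23) was not called (limma adjusted p 0.118), and without XY mESC 2 it was 0.75 and was called (limma adjusted p 0.00609).

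Between the lines Bmp7 was lower in XX. The log2 fold change of XX against XY was -0.66 (SE 0.23, limma adjusted p 0.0378) in mESC and -0.74 (SE 0.23, limma adjusted p 0.0199) in EpiLC. In mESC this rested on single libraries, since it was -0.36 (limma adjusted p 0.184) without XY mESC 2 and -0.42 (limma adjusted p 0.15) without XX mESC 2. The mESC call was also lost with no filter, with only the groups compared and with the replicate block. In EpiLC, where the ranges 3.33 to 3.71 and 6.5 to 6.88 lay well apart, the adjusted p was 0.0616 without XX EpiLC 3 and 0.0551 without XY EpiLC 1. The gene (ENSMUSG00000008999.7) lies on chromosome 2, 172868012 to 172940321, minus strand.

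**Figure D1:**
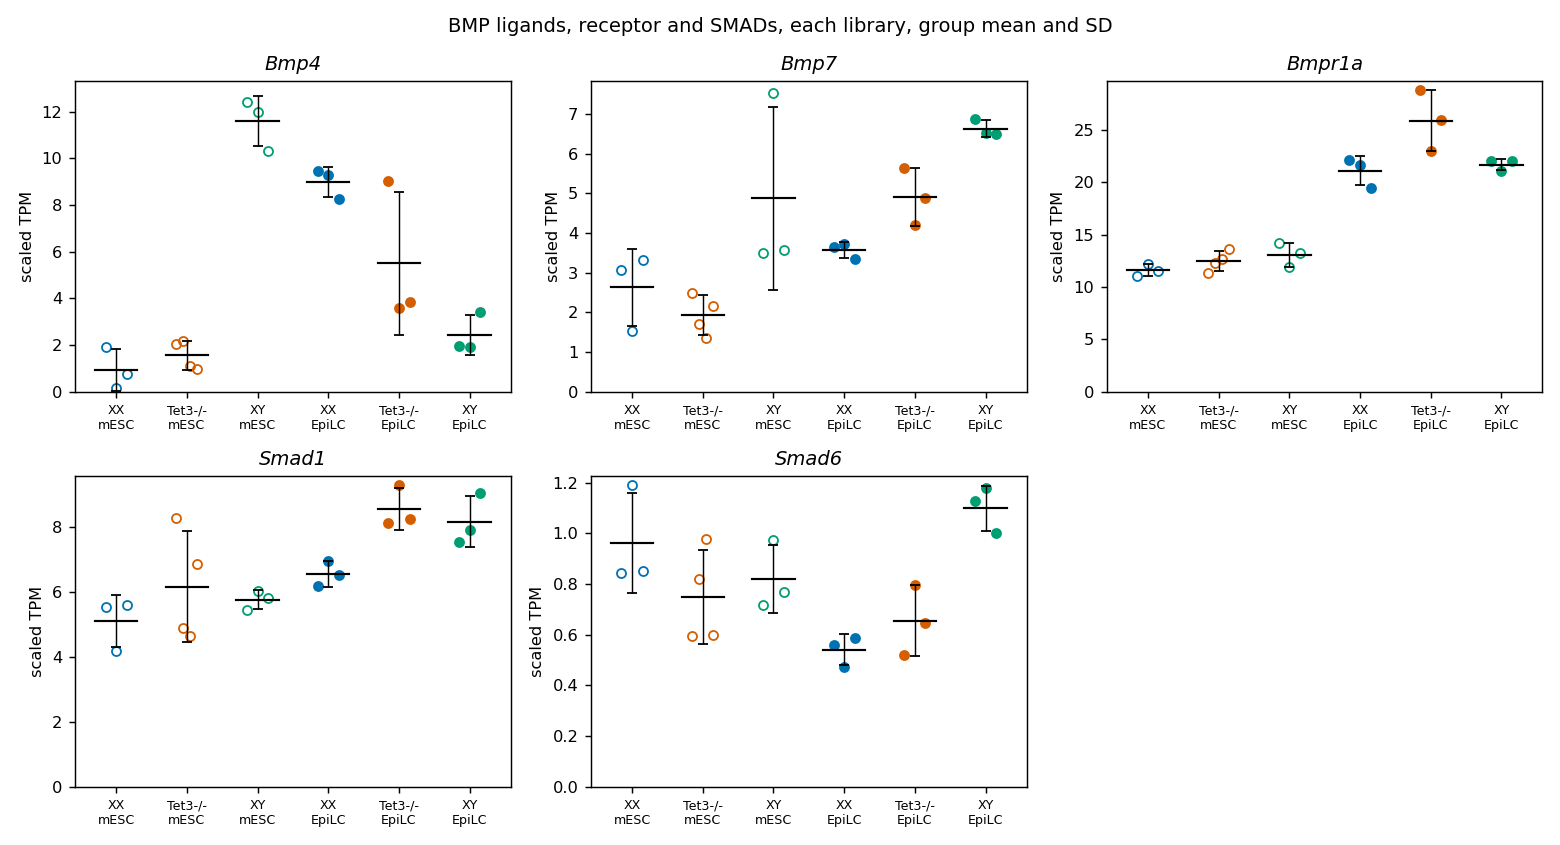
Scaled TPM (vertical axis, from 0, a separate scale per gene) of Bmp4, Bmp7, Bmpr1a, Smad1 and Smad6 in each library (points, open for mESC and filled for EpiLC), with the group mean (line) and SD (bar). Bmp4 was 11.6 in XY mESC and 0.93 in XX mESC on average, and 2.43 and 9 in EpiLC, while Bmpr1a was higher in EpiLC in each genotype.

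Bmpr1a, the type I receptor for BMP2 and BMP4 (ENSMUSG00000021796.15, chromosome 14, 34410734 to 34503341, minus strand), rose in all 3 genotypes. XX libraries went from 11, 12.2 and 11.5 scaled TPM in mESC to 22.1, 21.7 and 19.5 in EpiLC. XY libraries went from 14.2, 11.9 and 13.2 to 22, 21.1 and 22. Tet3-/- libraries were at 11.3, 12.3, 12.7 and 13.6 in mESC and at 28.8, 23 and 26 in EpiLC. In no genotype did the states overlap. The log2 fold changes were 0.81 (SE 0.1) in XX, 0.69 (SE 0.1) in XY and 0.99 (SE 0.09) in Tet3-/-, with limma adjusted p of 3.64e-06, 1.74e-05 and 1.21e-07. Both differences of transitions were small and not called, 0.12 (SE 0.14) for XX minus XY and 0.19 (SE 0.13) for Tet3-/- minus XX (limma adjusted p 0.598 and 0.707). In EpiLC every Tet3-/- library lay higher than every XX library, with a difference of 0.28 (SE 0.1, limma adjusted p 0.108), which was 0.36 and called without Tet3-/- EpiLC #3 (limma adjusted p 0.0424).

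Smad1, which carries the signal to the nucleus (ENSMUSG00000031681.16, chromosome 8, 79338395 to 79399518, minus strand), was at 4.17 to 5.6 scaled TPM in XX mESC and 6.18 to 6.96 in XX EpiLC. In XY it was at 5.44 to 6.03 and 7.52 to 9.05. In Tet3-/- mESC it was at 8.27, 4.89, 4.64 and 6.86 and in EpiLC at 8.13, 9.3 and 8.24, where library #1 of the mESC reached the EpiLC range. The log2 fold changes were 0.32 (SE 0.16) in XX, 0.43 (SE 0.16) in XY and 0.44 (SE 0.15) in Tet3-/-. XY and Tet3-/- were called and XX was not (limma adjusted p 0.0296, 0.0181 and 0.107), and the differences between transitions, -0.12 and 0.13, were not called (limma adjusted p 0.752 and 0.916). The 2 calls were near the threshold. In XY the adjusted p was from 0.0558 to 0.111 without XY mESC 1, XY mESC 3, XY EpiLC 2 or XY EpiLC 3, 0.0656 with no filter and 0.0573 with the replicate block. In Tet3-/- it was from 0.0594 to 0.0625 without Tet3-/- mESC #2, Tet3-/- mESC #3 or Tet3-/- EpiLC #3, 0.426 on unscaled TPM (0.3), 0.0968 with only the groups compared and 0.108 with the replicate number as a block (0.36).

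Smad6, an inhibitory SMAD that BMP signalling itself switches on in many cells (ENSMUSG00000036867.7, chromosome 9, 63953076 to 64022059, minus strand), was low throughout. In XX it was at 0.842, 1.19 and 0.853 scaled TPM in mESC and 0.56, 0.473 and 0.589 in EpiLC. In XY it was at 0.717, 0.974 and 0.769 in mESC and 1.13, 1.18 and 1 in EpiLC. It thus ran against Bmp4: lower in EpiLC than in mESC in the XX libraries and higher in the XY libraries, with no overlap in either line. Smad6 fell in the XX transition, with a log2 fold change of -0.34 (SE 0.11, limma adjusted p 0.0155), and the XY change of 0.21 (SE 0.11) was not called (limma adjusted p 0.126). The difference, XX minus XY, was -0.55 (SE 0.16, limma adjusted p 0.0165), and with quantile normalization -0.51 and not called (limma adjusted p 0.104). The XX call was lost without XX mESC 2 (-0.26, limma adjusted p 0.0716), without XX EpiLC 2 (-0.31, limma adjusted p 0.0585) and on unscaled TPM (-0.25, limma adjusted p 0.325). In EpiLC Smad6 was lower in XX than in XY by a log2 fold change of -0.45 (SE 0.11, limma adjusted p 0.00489). Tet3-/- libraries were at 0.595 to 0.978 in mESC and 0.521 to 0.798 in EpiLC, which overlapped (-0.08, SE 0.1, limma adjusted p 0.565). Against XX they differed by -0.17 (SE 0.1) in mESC and 0.1 (SE 0.11) in EpiLC, and the difference of transitions was 0.27 (SE 0.15), none of them called (limma adjusted p 0.503, 0.703 and 0.575).

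The Id genes split by line. Id2 was the main Id gene of the XX line in both states, while XY mESC had Id3 and Id4 in its place. Id2 (ENSMUSG00000020644.9, chromosome 12, 25093799 to 25097140, minus strand) was at 20.4, 15.5 and 16.8 scaled TPM in XX mESC. XY mESC had 0.217, 4.03 and 0.239, the high value again being library 2. In EpiLC it was at 32.8, 29.5 and 31.2 in XX and at 5.08, 4.24 and 3.95 in XY. Every XX library was higher than every XY library of its state. The log2 fold change of XX against XY was 3.23 (SE 0.39, limma adjusted p 1.21e-05) in mESC and 2.57 (SE 0.39, limma adjusted p 8.42e-05) in EpiLC, and in mESC it was 3.91 (limma adjusted p 1.06e-08) without XY mESC 2.

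Mean Id2 was higher in EpiLC in each genotype. In XY, where library 2 of the mESC reached the EpiLC range, it rose by 1.46 (SE 0.39, limma adjusted p 0.00493), or 2.14 (limma adjusted p 9.42e-07) without XY mESC 2. The XY rise was not called with only the groups compared (limma adjusted p 0.066). In XX the change was 0.8 (SE 0.39), not called in the fit of all libraries (limma adjusted p 0.0978) although the states did not overlap. It was the same size and called without XY mESC 2 (limma adjusted p 0.00272), a library that enters it only through the shared spread. Tet3-/- mESC had 7.53, 3.33, 5.1 and 5.15, and Tet3-/- EpiLC 20.7, 29.4 and 28, a rise of 2.13 (SE 0.36, limma adjusted p 0.000113). The difference of transitions, XX minus XY, was -0.66 (SE 0.55, limma adjusted p 0.43), and -1.34 (limma adjusted p 0.00372) without XY mESC 2.

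In mESC the 4 Tet3-/- libraries were all lower in Id2 than the 3 XX libraries of the same line. The log2 fold change was -1.6 (SE 0.36, limma adjusted p 0.0226), and means were 5.28 ± 1.72 (SD, n = 4) and 17.6 ± 2.52 (SD, n = 3). In EpiLC the means were 26 ± 4.69 and 31.2 ± 1.65 (SD, n = 3), with a difference of -0.27 (SE 0.39, limma adjusted p 0.793). The difference of the transitions, Tet3-/- minus XX, was 1.33 (SE 0.53) and not called (limma adjusted p 0.341), but was called without XY mESC 2 (1.33, limma adjusted p 0.0276). The mESC call was lost without XX mESC 1 (-1.49), XX mESC 3 (-1.62), Tet3-/- mESC #2 (-1.43) or Tet3-/- mESC #4 (-1.6), with limma adjusted p of 0.118, 0.0818, 0.0688 and 0.054, and on unscaled TPM (-1.33, limma adjusted p 0.112). It was also lost with a pseudocount of 0.1, with no filter, with only the groups compared and with the replicate block. The highest limma adjusted p in any alternative was 0.153.

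**Figure D2:**
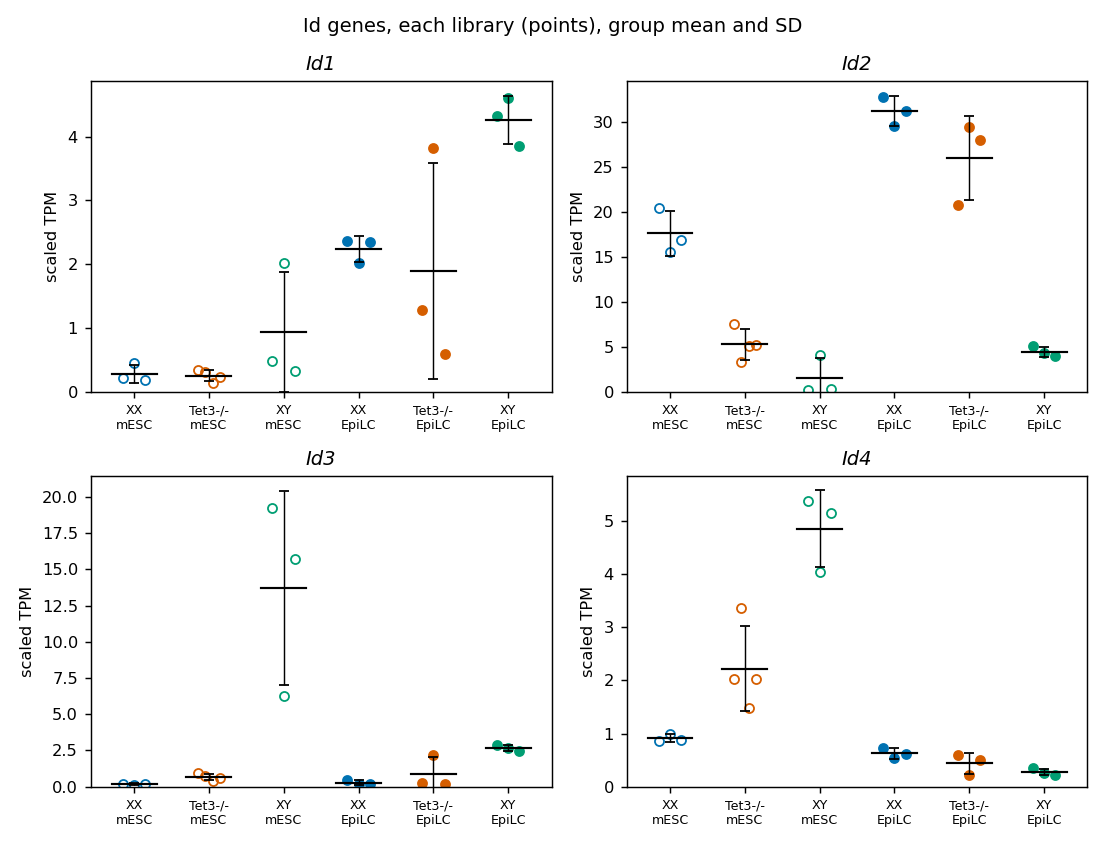
Scaled TPM (vertical axis, from 0, a separate scale per gene) of Id1, Id2, Id3 and Id4 in each library (points, open for mESC and filled for EpiLC), with the group mean (line) and SD (bar, clipped at 0). Id2 was highest in XX EpiLC (mean 31.2), Id3 and Id4 in XY mESC (13.7 and 4.85), and Id1 in XY EpiLC (4.26).

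Id3 (ENSMUSG00000007872.3, chromosome 4, 136143497 to 136145755, plus strand) was nearly the reverse of Id2 in mESC. XY mESC had 19.2, 6.25 and 15.7 scaled TPM, library 2 being lowest, and XX mESC had 0.216, 0.0891 and 0.222. The log2 fold change of XX against XY was -3.52 (SE 0.34, limma adjusted p 1.5e-06). XY EpiLC had 2.88, 2.7 and 2.46, so that Id3 fell in the XY transition, with a log2 fold change of -1.87 (SE 0.34, limma adjusted p 0.000237). XX EpiLC had 0.451, 0.154 and 0.22, of which the latter pair lay within the XX mESC range and the first above it (0.11, SE 0.34, limma adjusted p 0.81). In EpiLC XX stayed lower than XY, at -1.53 (SE 0.34, limma adjusted p 0.00236). The difference of transitions, XX minus XY, was 1.99 (SE 0.48, limma adjusted p 0.00676), which on unscaled TPM was 1.5 and not called (limma adjusted p 0.104).

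Every Tet3-/- mESC library had more Id3 than any XX mESC library, with 0.926, 0.71, 0.402 and 0.584 scaled TPM, but the difference of 0.49 (SE 0.32) was not called (limma adjusted p 0.541). Tet3-/- EpiLC had 0.273, 2.21 and 0.215. The high value was library #3, the one with high T, and without it the difference from XX EpiLC went from 0.43 (SE 0.34, limma adjusted p 0.561) to -0.03 (limma adjusted p 0.99). The Tet3-/- states overlapped in Id3, with a change of 0.05 (SE 0.32, limma adjusted p 0.909), which was -0.4 (limma adjusted p 0.241) without #3, and the difference from the XX transition was -0.06 (SE 0.47, limma adjusted p 0.987). Without #3 and XY mESC 2 together, chosen after the data were seen, Id3 was called lower in Tet3-/- EpiLC than in Tet3-/- mESC (-0.4, limma adjusted p 0.0173) and higher in Tet3-/- than in XX mESC (0.49, limma adjusted p 0.0227). Id3 has 3 annotated transcripts, and the coding one held a median of 85.8% of its level.

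Id4 (ENSMUSG00000021379.2, chromosome 13, 48261228 to 48266026, plus strand), with 1 annotated transcript, was also highest in XY mESC. It was at 5.37, 4.03 and 5.15 scaled TPM there and at 0.347, 0.266 and 0.221 in XY EpiLC. XX mESC had 0.857, 1 and 0.877, and XX EpiLC 0.73, 0.536 and 0.614. Id4 fell in the XY transition, with a log2 fold change of -2.19 (SE 0.16, limma adjusted p 1.27e-08), while the XX change of -0.23 (SE 0.16) was not called (limma adjusted p 0.254), and the difference, XX minus XY, was 1.95 (SE 0.23, limma adjusted p 1.9e-05). XX was lower than XY in mESC by -1.61 (SE 0.16, limma adjusted p 2.42e-06). In EpiLC every XX library lay higher than every XY library, at 0.35 (SE 0.16), which was not called (limma adjusted p 0.117). It was called with a pseudocount of 0.1, with only the groups compared and without Tet3-/- mESC #2 (limma adjusted p 0.0458 in the last).

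Tet3-/- mESC lay between the lines in Id4, with 2.02, 3.36, 1.48 and 2.03 scaled TPM, each higher than any XX mESC library and lower than any XY mESC library. The log2 fold change against XX was 0.72 (SE 0.15, limma adjusted p 0.0164). It was 0.7 without XX mESC 1 and 0.71 without XX mESC 3, and not called (limma adjusted p 0.0802 and 0.0722), nor on unscaled TPM (0.82, limma adjusted p 0.0903). The call was also lost with only the groups compared (limma adjusted p 0.202). Tet3-/- EpiLC had 0.604, 0.212 and 0.5, so that Id4 fell in the Tet3-/- transition, with a log2 fold change of -1.14 (SE 0.15, limma adjusted p 1.02e-05). The difference of transitions, Tet3-/- minus XX, was -0.91 (SE 0.23, limma adjusted p 0.0877) and was called without Tet3-/- mESC #3 (-1.02, limma adjusted p 0.0349).

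Id1, the member of the family most used as a readout of BMP signalling (ENSMUSG00000042745.9, chromosome 2, 152736251 to 152737410, plus strand), was low in mESC and rose in all 3 transitions. XX mESC had 0.22, 0.443 and 0.181 scaled TPM and XX EpiLC 2.36, 2.01 and 2.35. XY mESC had 0.474, 2.02 and 0.322, library 2 being high, and XY EpiLC 4.33, 4.6 and 3.85. Tet3-/- mESC had 0.331, 0.304, 0.141 and 0.224 and Tet3-/- EpiLC 1.28, 3.82 and 0.59, with #3 high. The states did not overlap in any genotype. The log2 fold changes were 1.34 (SE 0.32) in XX, 1.54 (SE 0.32) in XY and 1.06 (SE 0.3) in Tet3-/-, with limma adjusted p of 0.00212, 0.000694 and 0.00673. The Tet3-/- value was 0.61 (limma adjusted p 0.0477) without Tet3-/- EpiLC #3. Every XY EpiLC library had more Id1 than every XX EpiLC library, a difference of -0.7 (SE 0.32, limma adjusted p 0.103) that was called without Tet3-/- EpiLC #3 (limma adjusted p 0.026). Without both that library and XY mESC 2, chosen after the data were seen, Id1 was lower in Tet3-/- than in XX EpiLC (-0.77, limma adjusted p 0.00583).

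Summed over the 4 Id genes, XX and XY mESC were at like levels with a different make-up. The sum was 17 to 21.7 scaled TPM in XX mESC and 16.3 to 25.2 in XY mESC. Id2 was 91% to 94% of it in XX mESC, and 0.862%, 24.7% and 1.11% in XY mESC 1, 2 and 3. Id3 was 76%, 38.3% and 73.4% in those XY libraries and at most 1.23% in XX mESC. Tet3-/- mESC had the smallest sums of the mESC, 7.12 to 10.8, all lower than any other mESC library, and Id2 was 43.2% to 71.6% and Id4 18.7% to 43.6% of them. In EpiLC the sums were 32.2 to 36.3 in XX, 22.8 to 35.7 in Tet3-/- and 10.5 to 12.6 in XY, so that XY was lowest and the XX and Tet3-/- ranges overlapped. Id2 made up 90.3% to 91.6% in XX EpiLC and 82.5% to 95.5% in Tet3-/- EpiLC. In XY EpiLC 3 genes shared the sum, with Id1 at 34.3% to 38.9%, Id2 at 35.9% to 40.2% and Id3 at 22.8% to 23.5%. These shares are descriptions, with no test.

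**Figure D3:**
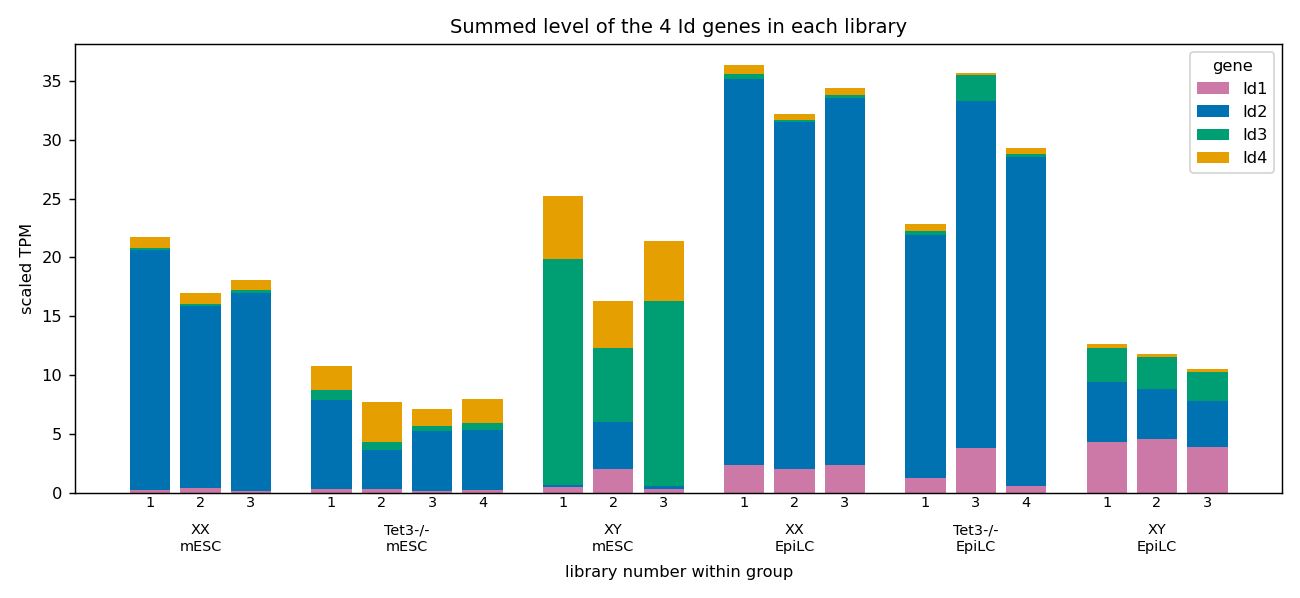
Stacked scaled TPM (vertical axis, from 0) of Id1, Id2, Id3 and Id4 in each of the 19 libraries, ordered by group, with library numbers on the horizontal axis. Id2 fills most of each XX bar (91% to 94% in mESC), Id3 and Id4 fill the bars of XY mESC 1 and 3, and XY mESC 2 holds all 4 genes.

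The calls in each transition were counted over the 9 members. Such counts do not compare the genotypes. The direct differences of transitions called 0 of 9 for Tet3-/- minus XX and 4 of 9 for XX minus XY. In XX 4 of 9 were called, 3 higher (Bmp4, Bmpr1a, Id1) and 1 lower (Smad6), beside 50.4% of all tested genes (24.5% higher, 25.9% lower). In XY 7 of 9 were called, 4 higher (Bmpr1a, Smad1, Id1, Id2) and 3 lower (Bmp4, Id3, Id4), beside 51.4% (26.4% higher, 25% lower). In Tet3-/- 7 of 9 were called, 6 higher (Bmp4, Bmp7, Bmpr1a, Smad1, Id1, Id2) and 1 lower (Id4), beside 52.4% (25.2% higher, 27.2% lower). With a background this high, the XX count of 4 is not a result about the members. The members' median log2 fold changes were 0.37, 0.43 and 0.99, and those of all tested genes -0.02, 0 and 0. Bmpr1a and Id1 were the members called in all 3 transitions, both higher.

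**Figure D4:**
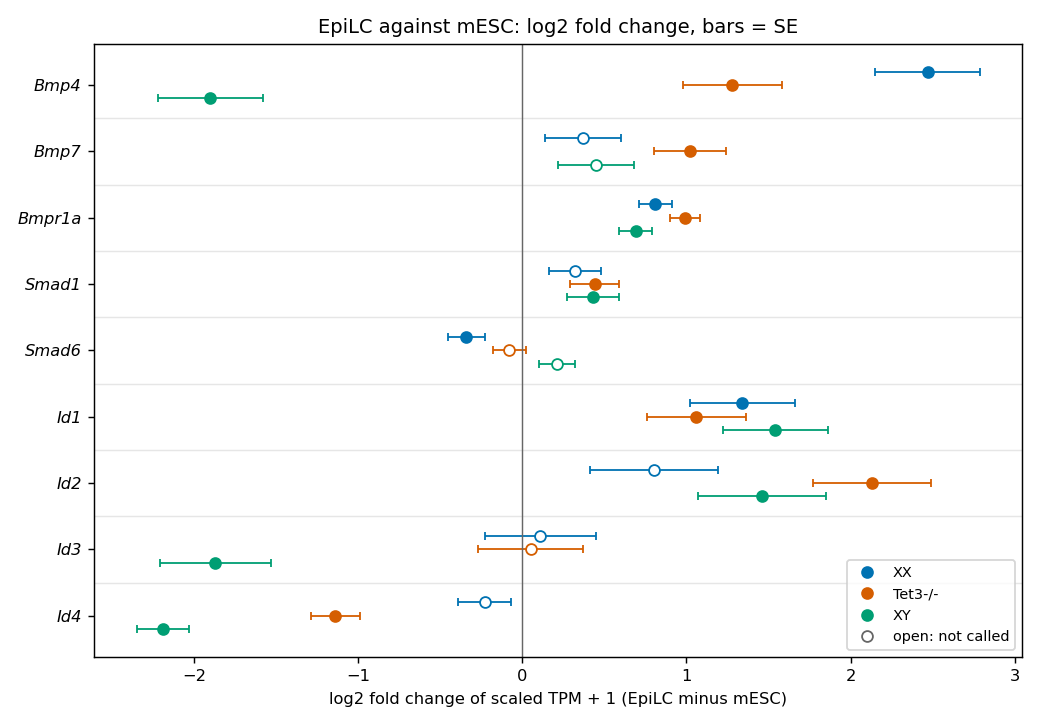
Log2 fold change of EpiLC against mESC (horizontal axis, log2 of scaled TPM + 1, bars are SE) for each member in XX, Tet3-/- and XY, filled where called and open where not. Bmp4 stands at 2.47 in XX and -1.9 in XY, Id3 and Id4 stand at -1.87 and -2.19 in XY, and Bmpr1a and Id1 are to the right of 0 in each genotype.

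The XX and XY transitions were set against each other directly. Of the 9 members 4 differed: Bmp4, Id3 and Id4 with a higher change in XX and Smad6 with a lower one, beside 23.7% of all tested genes (10.9% higher, 12.8% lower). XX against XY called 5 members in mESC, with Id2 higher and Bmp4, Bmp7, Id3 and Id4 lower in XX, beside 31.3% of genes (17.7% higher, 13.6% lower). It called 5 in EpiLC, with Bmp4 and Id2 higher and Bmp7, Smad6 and Id3 lower in XX, beside 33.8% of genes (17.2% higher, 16.6% lower). On unscaled TPM 8 were called in EpiLC, adding Bmpr1a (-0.76), Smad1 (-0.95) and Id1 (-1.31), each lower in XX, where the median of all genes itself was -0.59. Not called between the lines in mESC were Bmpr1a (-0.16), Smad1 (-0.16), Smad6 (0.11) and Id1 (-0.5), and in EpiLC Bmpr1a (-0.04) and Smad1 (-0.28). The difference of transitions was -0.08 for Bmp7 and -0.2 for Id1, neither called. Bmp7, Id2 and Id3 thus kept their direction between the lines in both states, while Bmp4 changed it. Id4 was lower in XX in mESC (-1.61) and not called in EpiLC, where its value was 0.35. The naive marker list summed to 48.2 to 49.6 scaled TPM in XX EpiLC and 6.29 to 7.24 in XY EpiLC, and the formative list to 50.4 to 52.9 and 250 to 259. The part of this in the members' differences was not tested.

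Tet3-/- against XX called 2 members in mESC, Id4 higher and Id2 lower, beside 3.18% of genes (1.77% higher, 1.41% lower). The count was 0 without XX mESC 1 or XX mESC 3. In EpiLC limma called 0 of 9, beside 5.46% of genes (2.5% higher, 2.97% lower). The difference of the transitions, Tet3-/- minus XX, also called 0 of 9, beside 0.661% of genes (0.247% higher, 0.414% lower). Over all tested genes these last comparisons had 818 and 99 genes called, and 2889 and 1646 with an unadjusted p under 0.05. Members' medians were 0.1, 0.1 and 0.13. Other members not called had log2 fold changes in mESC of -0.29 for Bmp7, 0.1 for Bmpr1a, 0.21 for Smad1 and -0.03 for Id1, and in EpiLC 0.37 for Bmp7, 0.34 for Smad1, -0.32 for Id1 and -0.19 for Id4. The Id1 difference of transitions was -0.29 (SE 0.43). The XX libraries are shared by these comparisons with those of XX against XY, so the 2 sets of values are not independent.

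**Figure D5:**
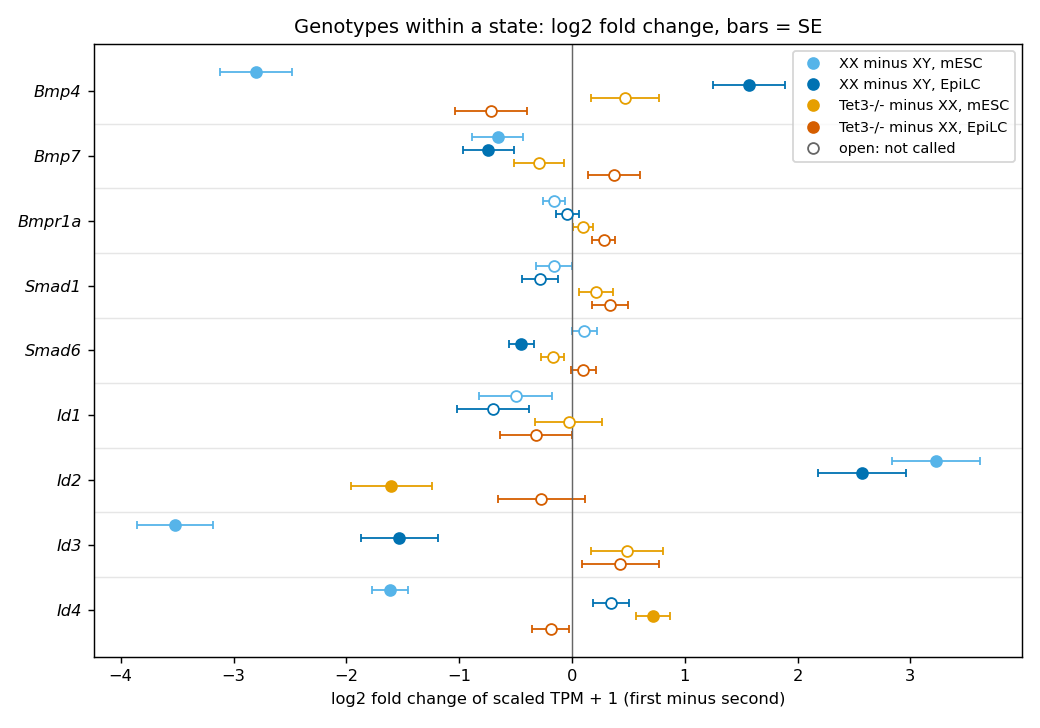
Log2 fold change between genotypes within a state (horizontal axis, log2 of scaled TPM + 1, bars are SE) for each member, filled where called. XX minus XY reaches 3.23 for Id2 and -3.52 for Id3 in mESC, and the Tet3-/- minus XX values lie between -1.6 and 0.72, with Id2 and Id4 in mESC filled.

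The shares of higher calls among all called genes depended on the scaling. They were 48.6% (XX), 51.3% (XY) and 48.1% (Tet3-/-) for the change from mESC to EpiLC, and 61.2%, 81.5% and 38.7% on unscaled TPM. For Tet3-/- against XX they were 55.7% in mESC and 45.7% in EpiLC, and 82.2% and 11.2% unscaled. For XX against XY they were 56.5% and 50.9%, and 45.4% and 11.1% unscaled. For the differences of transitions they were 37.4% (Tet3-/- minus XX) and 46% (XX minus XY), and 0% and 22.5% unscaled. Among members, the called directions of Bmp4, Bmp7, Bmpr1a, Smad1, Smad6, Id1, Id2, Id3 and Id4 were the same on both scales.

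Other genes of the pathway were counted from lists by role. Of 13 other BMP and GDF ligands listed 3 were tested. Gdf3, a ligand of the epiblast, fell in all 3 transitions, from 17.6 to 6.66 scaled TPM in XX and from 30.9 to 5.76 in XY on average. Bmp8a and Bmp8b, ligands known for germ cell induction, rose in XX (log2 fold changes 0.82 and 0.99, limma adjusted p 0.000226 and 1.28e-05) and were higher in XX than in XY EpiLC (1.26 and 1.13, limma adjusted p 7.65e-06 and 7.74e-06). Together with Bmp4 this made 3 ligands higher in XX than in XY EpiLC, beside 17.2% of all tested genes. Bmp8a and Bmp8b passed the filter through the XX EpiLC libraries, at 1.47 to 1.62 and 1.28 to 1.51 scaled TPM. A lower XX EpiLC level could hardly be called for them, so the count is not a result about the ligands. Bmp7 was lower in XX there (-0.74, limma adjusted p 0.0199), and Gdf3 was not called (0.18, limma adjusted p 0.429). All 3 other ligands tested were lower in Tet3-/- than in XX EpiLC, beside 2.97% of all tested genes. For Bmp8a and Bmp8b the filter again favoured a high level in XX EpiLC, so this count is not a result about the ligands either. Gdf3 differed by -0.61, Bmp8a by -0.58 and Bmp8b by -0.57 (limma adjusted p 0.0394, 0.0306 and 0.0183). On unscaled TPM none of these 3 was called (limma adjusted p 0.518, 0.374 and 0.252). Naive markers moved with them: 5 of 8 were lower and 0 higher in Tet3-/- EpiLC (1 lower on unscaled TPM), with sums of 13.7 to 23.9 scaled TPM against 48.2 to 49.6 in XX EpiLC, and their part in the ligands' differences was not tested.

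Of 10 other receptors and co-receptors 7 were tested. In XX 4 rose and 2 fell, in XY 4 rose and 1 fell, and in Tet3-/- 4 rose and 1 fell. Over all tested genes 24.5%, 26.4% and 25.2% rose and 25.9%, 25% and 27.2% fell. On unscaled TPM 3, 6 and 2 of the 7 rose and 1, 0 and 1 fell. The type II receptor Acvr2b and the co-receptor Rgmb were among the risers, by 0.78 and 1.14 in XX and 1.38 and 1.64 in XY. In EpiLC 4 of 7 were lower in XX than in XY, with none higher, beside 16.6% of all tested genes lower and 17.2% higher. Of 12 other SMADs and regulators 11 were tested, and 7, 8 and 8 rose in XX, XY and Tet3-/- (0, 1 and 2 fell), beside 24.5%, 26.4% and 25.2% of all tested genes higher. These counts depended on the scaling. On unscaled TPM 4, 9 and 1 rose and 0, 0 and 2 fell. Smad5, which acts beside Smad1, went from 3.74 to 7.54 scaled TPM in XY and from 3.88 to 5.16 in XX on average. Its changes were 0.85 and 0.34, with a called difference of -0.51 (SE 0.14, limma adjusted p 0.0132) that was not called on unscaled TPM (-0.95, limma adjusted p 0.103). Skil, which encodes a repressor of SMADs, rose by 2.08, 1.99 and 2.09 in XX, XY and Tet3-/-.

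Of 13 listed secreted and membrane antagonists 8 were tested. In XX, XY and Tet3-/- 6, 5 and 7 rose and 0 fell, beside 24.5%, 26.4% and 25.2% of all tested genes higher, and on unscaled TPM 5, 5 and 4 rose. The medians were 0.58, 0.48 and 1.19, against -0.02, 0 and 0 over all genes. The filter bears on these counts and medians, since Nog and Chrd, low in mESC, passed it through EpiLC libraries. For such genes a fall could hardly be called. Not every antagonist rose: in XY Fst and Fstl1 had changes of -1.43 and -0.69, which were not called (limma adjusted p 0.0651 and 0.139). Nog and Chrd differed between the lines in opposite directions. Nog, whose product noggin binds BMP4, was at 2.01 to 2.65 scaled TPM in XX EpiLC, 2.65 to 4.08 in Tet3-/- EpiLC and 0.143 to 0.215 in XY EpiLC, and XX was higher than XY by 1.49 (SE 0.11, limma adjusted p 6.78e-08). Chrd (chordin) ran the other way, at 0.521 to 0.718 in XX EpiLC and 2.33 to 2.96 in XY EpiLC (-1.2, SE 0.13, limma adjusted p 3.3e-06). Fst (follistatin, which binds activin and some BMPs) was at 26.1 to 37 in XY mESC, the group with high Bmp4 and Id3, and at 0.826 to 1.22 in XX mESC (-3.88, SE 0.62, limma adjusted p 0.000169). In Tet3-/- EpiLC it was at 1.47, 35.2 and 2.65, the high value being #3. Its call in the Tet3-/- transition (1.72, SE 0.58, limma adjusted p 0.0201) was lost on unscaled TPM (1.65, limma adjusted p 0.058). Fst is among the 7 antagonists that rose in Tet3-/-, and its value without #3 is not given.

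Of 16 other genes described as BMP targets 8 were tested. In each state 6 were higher and 1 lower in XX than in XY, beside 17.7% and 17.2% of all tested genes higher in mESC and EpiLC. On unscaled TPM 3 were higher and 1 lower in mESC, where Junb, Tbx3 and Prdm1 lost their calls (limma adjusted p 0.116, 0.456 and 0.0724), and 5 and 1 in EpiLC. Dusp9, an X-linked phosphatase of the ERK pathway, was at 23.6 to 25 scaled TPM in XX mESC and 1.28 to 1.71 in XY mESC, and at 54 to 55.5 and 13.6 to 15.6 in EpiLC. Cdx2 was the target lower in XX mESC, at 0.0623 to 0.557 against 2.84 to 8.05. No target other than Dusp9 was called in Tet3-/- against XX mESC (-0.87, SE 0.16, limma adjusted p 0.00747, and 0.526 on unscaled TPM), and 0 of 8 were called in EpiLC. All 3 listed bHLH partners of ID proteins were tested. All 3 were lower in XX than in XY EpiLC, beside 16.6% of all tested genes. Among them Tcf12 was at 10.6 to 10.8 in XX EpiLC and 18.2 to 21.5 in XY EpiLC (-0.85, SE 0.19, limma adjusted p 0.00205).

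The genes most like each member were found from the 6 group means, by the root mean square (RMS) difference after centring, on the log2 scale. Nearest to Bmp4 was Ddx58, at 0.208, with the next gene at 0.511. Nearest to Id2 were Sgce (0.245) and Capg (0.361), followed by Dusp9 (0.413). Nearest to Id3 were Mcc (0.366) and the Y-linked Uba1y (0.392), followed by Axin2, a Wnt target (0.463). Nearest to Id4 were Gm16211 (0.115) and Cyp2c70 (0.116). Id1 was nearest to Gfpt2 (0.0975) and Cdkn1c (0.105), Bmp7 to Shank3 (0.0964) and Bmpr1a to Pom121 (0.0595). Smad1 and Smad6, which varied least between groups, had 1700052K11Rik (0.0326) and Ears2 (0.0391) nearest. No member was among the 3 genes nearest to another member.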

How the data were processed

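Stranded total RNA depleted of ribosomal RNA was sequenced, from RNA with a RIN of at least 9, per the labels' protocols. The deposited table gives TPM for 140948 transcripts, each column summing to 1000000, per the file header and its values. FastQC 0.11.7, Trimmomatic 0.35, Salmon 1.1.0 and the build GRCm38 are named in the submitters' processing notes. The column headed with the bare number 1 holds the same deposited TPM as the others. TPM does not hold the depth, so errors are the spread over libraries.

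Transcripts were matched to GENCODE M21 (139357 with version, 495 without, 1096 unmatched, which held 0.045% to 0.215% of TPM) and summed to 54119 genes. TPM was divided by median-of-ratios factors over 13815 genes (0.595 to 1.704). The 14972 genes that reached a TPM of 1 in 3 or more libraries were fitted as log2(scaled TPM + 1) with limma 3.58.1 in R 4.3.3, one fit of 19 libraries and 6 groups, with eBayes and a trend. 9 contrasts were taken, with Benjamini-Hochberg adjustment over all genes and a threshold of 0.05. The fit was tested on simulated data. Values of all 9 members are given in every contrast. Of the other pathway lists, counts are given with values for genes picked for their role or for their values after these were seen, and the 3 genes nearest to each member were ranked. The members, the lists and the scaling were chosen with earlier results of these data known.

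Alternatives were unscaled TPM, quantile normalization, another pseudocount (0.1), either no filter or a TPM minimum of 5, a fit of each comparison's groups alone, eBayes with no trend, a fold change threshold, a replicate block and each library left out. Leaving out both libraries that stand apart was added after the data were seen. Sequences are from RefSeq. Figures were drawn with matplotlib 3.10.9 in Python 3.11.15.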

Additional observations from a re-analysis of the deposited data

Results flagged for a closer look

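4 of the 9 members changed differently in the XX and XY transitions by a direct test of the difference (limma, adjusted over all genes). Bmp4 was flagged with a difference of 4.37, Id3 with 1.99 and Id4 with 1.95, each a higher change in XX than in XY, and Smad6 with -0.55. The Smad6 difference was not called with quantile normalization (limma adjusted p 0.104), nor that of Id3 on unscaled TPM (limma adjusted p 0.104). Bmp4 rose in all 3 XX EpiLC libraries above every XX mESC library and lay lower in all 3 XY EpiLC libraries than in every XY mESC library. Id3 and Id4 fell in XY, and their XX changes were not called. The lines LF2 and E14 differ between the same groups, so that sex and line cannot be told apart. Among members in Tet3-/- mESC, the group with 4 libraries, no library stood apart by Dixon's test. With 4 values that test finds only an extreme library, so it does not show that the 4 were alike.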

How the results depend on the processing

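No called value of a member reversed in any alternative. Of 260 values of called results in the other settings 241 kept their call and 19 lost it, and 11 others gained one. With one library left out 627 of 646 kept it and 19 lost it, and 9 gained one. Each of the 19 libraries was left out for every result, including those outside the groups compared. Such libraries enter only through the shared spread, so the share kept overstates how firm the calls are. For Tet3-/- against XX mESC the count of 2 members became 0 on unscaled TPM and with only the groups compared, and 1 with a pseudocount of 0.1, with no filter, with a TPM of at least 5, with an added log2 fold change of 1, or with the replicate block. For XX against XY EpiLC the count of 5 became 8 on unscaled TPM and with only the groups compared, and 3 with a TPM of at least 5 or a fold change of 1. A TPM of at least 5 left 3 for XX against XY mESC and 1 for the difference of the XX and XY transitions, since fewer members are tested there. A fold change of 1 left 2 in the XX transition. Without XY mESC 2 and Tet3-/- EpiLC #3 together, 2 members were called in Tet3-/- against XX EpiLC and 1 in the difference, Tet3-/- minus XX.

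With one library left out, the members called ranged from 3 to 5 in XX, 6 to 8 in XY, 6 to 7 in Tet3-/-, 0 to 2 and 0 to 1 for Tet3-/- against XX mESC and EpiLC, 4 to 5 and 4 to 6 for XX against XY, 0 to 1 for the difference Tet3-/- minus XX and 4 to 5 for XX minus XY. Counts of all called genes moved with the scaling, being 7541, 7843, 476, 818, 4683, 99 and 3547 in the XX and Tet3-/- transitions, Tet3-/- against XX mESC and EpiLC, XX against XY mESC and the 2 differences (Tet3-/- minus XX, XX minus XY), and 4689, 5258, 90, 161, 2121, 26 and 2397 unscaled. For XX against XY EpiLC they went up from 5066 to 7074, and in the XY transition they were 7689 and 7561. The cause of these changes was not tested. Same-numbered mESC and EpiLC libraries did not all deviate together (r across genes 0.042, -0.052 and 0.061 in XX, 0.206, -0.029 and 0.274 in XY, and 0.216, 0.223 and -0.094 in Tet3-/-), so the numbers were not taken as pairs, and not every library was most like its own number. With the replicate block 4, 6 and 6 members were called in the XX, XY and Tet3-/- transitions.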
